A study of Mus musculus with 1627 samples.

Results

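The respiratory chain of mitochondria moves electrons from NADH and succinate to oxygen and uses the proton gradient this builds to make ATP. It consists of complex I (NADH dehydrogenase), complex II (succinate dehydrogenase), complex III (the cytochrome bc1 complex), complex IV (cytochrome c oxidase) and ATP synthase, and most of their subunits are encoded in the nucleus. In T cells the balance between this chain and glycolysis is known to shift with activation, and regulatory T cells (Tregs) are known to rely on respiration. The genes described here were chosen by symbol alone: those starting with Ndufa, Ndufb, Ndufc, Ndufs, Ndufv, Uqcr, Atp5 or Cox4 to Cox8, with the succinate dehydrogenase genes Sdha to Sdhd and Cyc1, leaving out the Ndufaf assembly factors and pseudogenes. This gave 86 of the 23725 genes in the count table: 36 of complex I, 4 of complex II, 9 of complex III, 20 of complex IV, 15 of ATP synthase and 2, Atp5s and Atp5sl, that share the name and are not subunits. Ndufa4 and its relative Ndufa4l2 were placed with complex IV, where the Ndufa4 protein is known to sit.

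Foxp3+ Tregs, CD4 T cells that restrain immune responses, were sorted as single live cells from male B6 Foxp3-Ires-Gfp mice aged 8 months, 4 days after muscle injury with cardiotoxin, which kills muscle fibres. The strain carries a green fluorescent reporter expressed with Foxp3, and both tissues came from injured mice, so no uninjured state was compared. Their mRNA was counted by inDrops, which captures single cells in droplets, primes at the poly(A) tail and marks every molecule with a random tag, so that each unique molecular identifier (UMI) stands for 1 captured mRNA. There was 1 spleen library and there were 2 libraries of injured muscle, here muscle 1 and muscle 2. The labels name no animal, so each library counted as 1 sample, no test was possible between the tissues, and both muscle folds share the same spleen library.

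The spleen library held 982570 UMIs, muscle 1 held 1533277 and muscle 2 held 1916496, with median cells of 3541, 1976 and 2487.5 UMIs. The deposited cells carried Treg markers in every library, with Foxp3 at 368.4 UMIs per 1000000 (CPM) in spleen and 554.4 and 551.5 CPM in the muscle libraries. Together the 8 T cell and Treg markers took 0.41% of UMIs in spleen, 0.68% in muscle 1 and 0.59% in muscle 2. Not all were higher in muscle: Ikzf2 gave 1016.7, 943.1 and 879.2 CPM, and Cd3e gave 220.8, 221.7 and 223.3 CPM. The 12 muscle fibre markers gave 29, 46 and 89 UMIs in all, of which Acta1 supplied 25, 37 and 74, while Myh1, Myh2, Myh4 and Myl1 were at 0 in each library. Myeloid markers gave 41, 36 and 53 UMIs, fibroblast markers 4, 1 and 6, and B cell markers, mostly Cd74, summed to 88.5 CPM in spleen and 187.8 CPM in each muscle library. Libraries shared few cell barcodes: 1 between spleen and muscle 1, 0 between spleen and muscle 2 and 11 between the muscle libraries. Genes of the cytosolic ribosome took 22.3% of UMIs in spleen against 13.4% and 13.7% in muscle, which lowers the CPM of every other gene in spleen.

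Respiratory chain mRNAs made up nearly the same share of Treg transcripts in spleen and in injured muscle. The 86 genes together supplied 1.43% of UMIs in spleen (exact binomial 95% interval 1.40% to 1.45%), 1.45% in muscle 1 (1.43% to 1.47%) and 1.55% in muscle 2 (1.53% to 1.57%). Intervals throughout cover counting error only. The muscle libraries thus lay 1.02-fold and 1.09-fold above spleen, and differed from each other by more than muscle 1 differed from spleen. Outside the ribosomal protein genes the order turned: the share was 1.84% in spleen, 1.68% in muscle 1 and 1.80% in muscle 2. The direction of the small difference in total share therefore rests on the denominator.

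Among the 77 members with at least 50 UMIs over the 3 libraries, 0 were higher than in spleen by 2-fold or more in both muscle libraries, against 7.47% of the 7617 genes with as many UMIs. Likewise 0 members were lower by 2-fold or more in both, against 3.45% of all genes. At 1.5-fold, 4 members were higher in both muscle libraries (15.9% of all genes) and 1 was lower (10.8% of all genes). The higher genes were Ndufa4, Ndufa8, Ndufb2 and Ndufb7, and the lower gene was Cox7a2l. The median member lay at a log2 fold of 0.07 in muscle 1 and 0.16 in muscle 2, beside 0.06 and 0.08 over all genes. The SD of the log2 fold over members was 0.38 in each muscle library, while that over all genes, many of them counted less deeply, was 0.84 and 0.85. Between the muscle libraries themselves the log2 ratio had an SD of 0.24 over members and 0.50 over all genes.

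**Figure D1:**
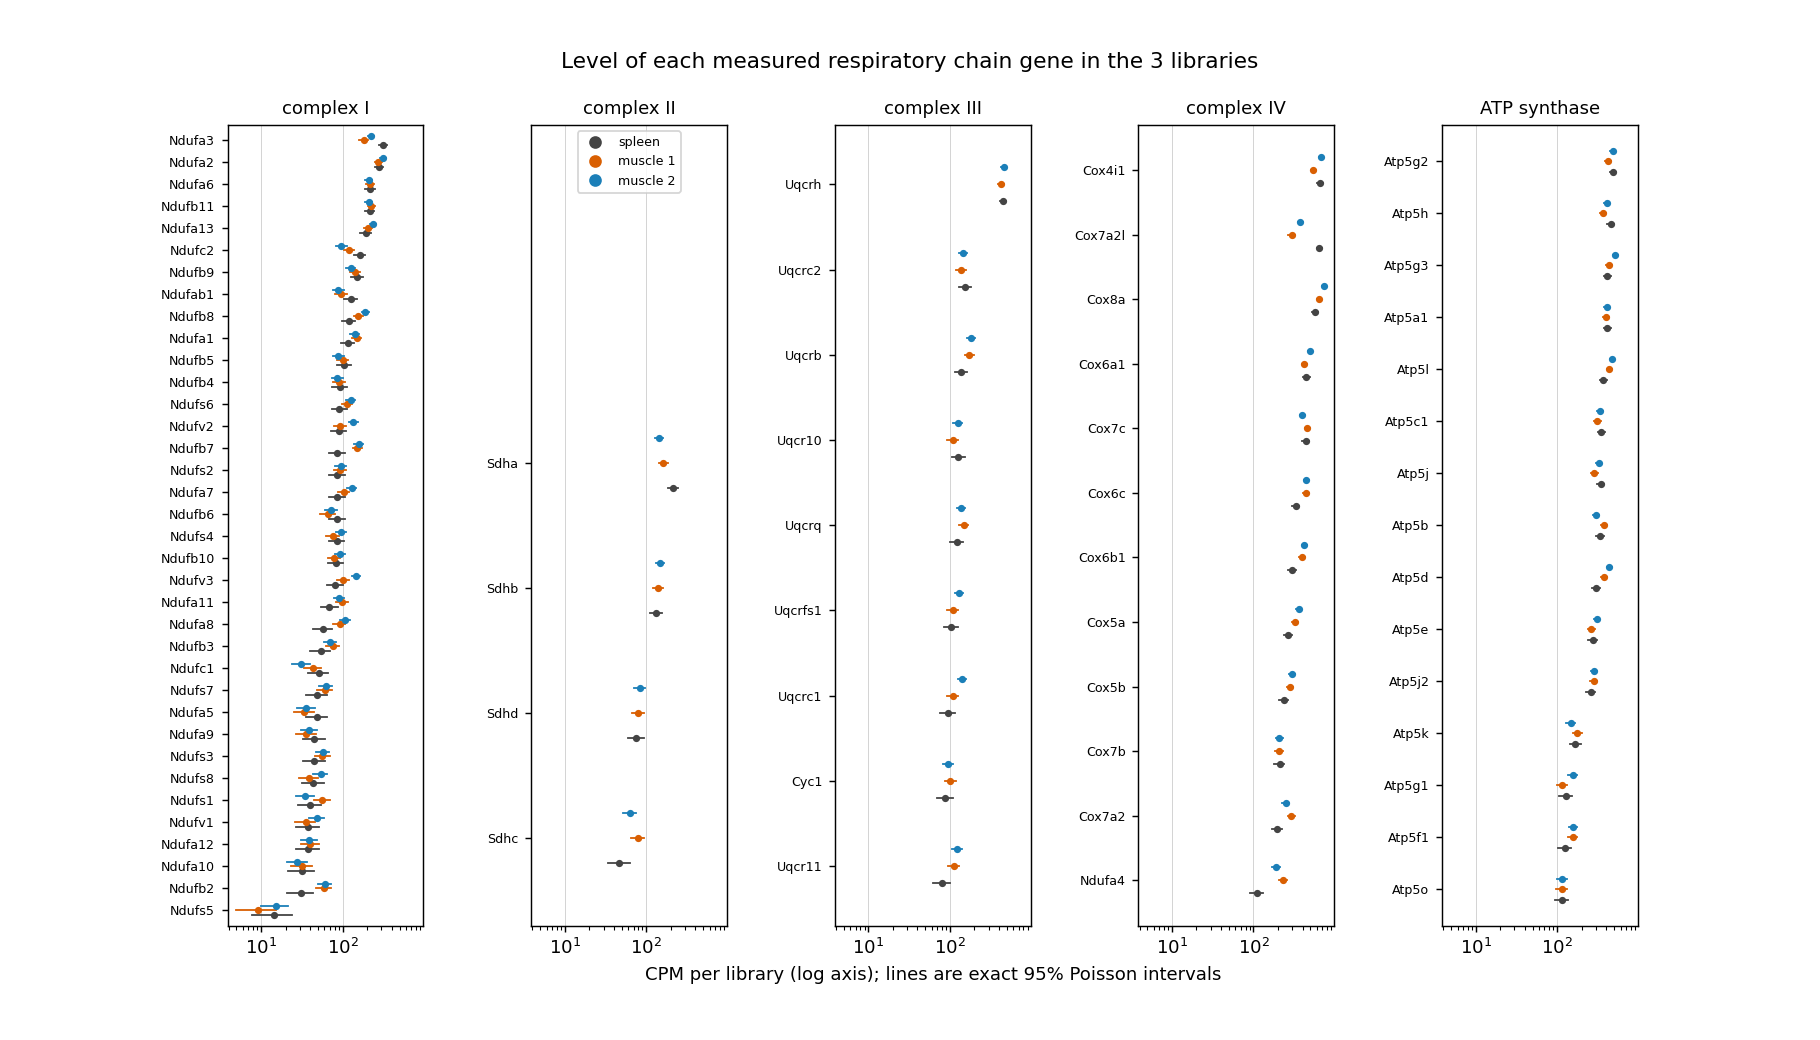
Level of the 76 measured subunit genes in each library, in CPM on a log axis, with exact 95% Poisson intervals as lines and 1 panel per complex, genes ordered by spleen level. Points of the 3 libraries lie close together for most genes, with Cox7a2l, Ndufa4 and Ndufb2 among the exceptions.

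The complexes differed in level more than the tissues did. Since each UMI counts 1 captured mRNA at its 3' end, CPM were not divided by transcript length. Many of these genes are known to have processed pseudogenes. Of the 84 members with an annotated position, 11 overlap another annotated gene on the same strand and 29 on the opposite strand. Single levels may thus include reads of other genes, or lack reads that also map to a pseudogene. How multi-mapped reads were treated is not given, so the order of genes and complexes by level carries this limit. The median gene stood at 84.98 CPM in spleen for complex I, 104.3 for complex II, 122.1 for complex III, 313.97 for complex IV and 333.8 for ATP synthase. In muscle 1 these medians were 92.3, 109.6, 111.5, 357.4 and 312.4 CPM, and in muscle 2 they were 92.1, 113.5, 137.2, 385.3 and 323.5 CPM. The order from complex I up to complex IV and ATP synthase held in each library, but complex IV stood above ATP synthase in the muscle libraries and below it in spleen.

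Complex I oxidises NADH, and all 36 of its genes were measured. Its median log2 fold was 0.03 in muscle 1 and 0.17 in muscle 2, with single genes from -0.79 to 0.94 and from -0.75 to 1.0. The 7 nuclear core subunits, several of which carry the flavin and iron-sulfur centres, had medians of 0.12 and 0.34, and the 29 accessory subunits had medians of 0.00 and 0.09. The core genes were also the lower in level, with a median of 44.8 CPM in spleen and 56.7 and 56.9 CPM in muscle, against 85.5, 98.5 and 95.5 CPM for accessory genes. Together the core genes took 1.11-fold (interval 0.98 to 1.26) and 1.24-fold (1.10 to 1.41) of their spleen share in the muscle libraries.

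Ndufb2, an accessory subunit of the membrane arm, gave 30.5 CPM in spleen, 58.7 CPM in muscle 1 and 61.05 CPM in muscle 2. The spleen value came from 30 UMIs in 16 cells. Both muscle values lay close together and above spleen, at 1.92-fold (interval 1.26 to 3.01) and 2.0-fold (1.33 to 3.09). The gene lies at chr6:39592574-39603382 on the plus strand (GENCODE M21, GRCm38), where the annotation also places Gm42420 on the same strand and Braf and Gm16272 on the other. The strand setting of the counting is not given in the sources used here, so reads in stretches that these genes share cannot be told apart.

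Ndufb7 and Ndufa8 are accessory subunits known to face the intermembrane space. Ndufb7 (chr8:83566671-83571626, plus strand) stood at 86.5 CPM in spleen and at 151.96 and 157.1 CPM in the muscle libraries, 1.76-fold (1.36 to 2.28) and 1.82-fold (1.42 to 2.34) above spleen. Its Poisson interval in spleen, 69.1 to 106.97 CPM, did not reach those of muscle, 133.1 to 172.8 and 139.8 to 175.8 CPM. Ndufa8 (chr2:36036326-36049406, minus strand) was less even, with 58 CPM in spleen and 91.96 and 106.97 CPM in muscle, or 1.59-fold (1.16 to 2.2) and 1.84-fold (1.37 to 2.52).

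By the mean CPM of the 3 libraries the most abundant complex I mRNAs were Ndufa2, Ndufa3 and Ndufb11, which encode small accessory subunits, though Ndufa6 or Ndufa13 exceeded 1 or more of them in each library. Ndufa2 stood at 280.9, 273.9 and 314.1 CPM in spleen, muscle 1 and muscle 2, and Ndufb11 at 214.7, 225.7 and 210.3 CPM, neither with a common direction beyond the difference between the muscle libraries. Ndufa3 had the lowest mean log2 fold of the complex, with 313.5 CPM in spleen, 181.3 in muscle 1 and 223.3 in muscle 2. Its fold was 1.73-fold lower (1.47 to 2.04) in muscle 1 and 1.40-fold lower (1.21 to 1.63) in muscle 2, so it missed the 1.5-fold rule in the latter. Ndufa3 overlaps Tfpt on the opposite strand. Ndufc2, another accessory subunit, named here after its values were seen, went from 162.8 CPM to 121.3 and 97.1 CPM, 1.34-fold and 1.68-fold lower.

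The 3 members that differed most between the muscle libraries all belong to complex I. Ndufs5 was 1.66-fold higher in muscle 2 than in muscle 1, but rested on 14, 14 and 29 UMIs in the 3 libraries. Ndufs1, the largest core subunit, gave 39.7 CPM in spleen, 56.1 in muscle 1 and 34.96 in muscle 2. Ndufv2, an iron-sulfur subunit of the NADH-oxidising module, gave 89.6, 92.6 and 136.2 CPM, so it stood above spleen in muscle 2 and near it in muscle 1. No statement about tissue can rest on these 3 genes.

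Complex II links the citric acid cycle to the chain, and its 4 genes did not share a direction. Sdha, the flavoprotein that oxidises succinate, stood at 212.7 CPM in spleen, 161.7 in muscle 1 and 142.97 in muscle 2, or 1.32-fold (1.09 to 1.59) and 1.49-fold (1.24 to 1.79) lower. Sdhc, a membrane anchor, stood at 46.8, 78.3 and 62.6 CPM, 1.67-fold higher (1.18 to 2.40) in muscle 1 and 1.34-fold (0.94 to 1.92) in muscle 2. The iron-sulfur subunit Sdhb gave 133.3, 139.6 and 149.2 CPM and the other anchor, Sdhd, 75.3, 79.6 and 84.01 CPM. Their intervals overlapped between spleen and muscle. The excess of Sdha over Sdhc in CPM was larger in spleen than in either muscle library.

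Complex III passes electrons to cytochrome c, and its 9 genes had a median log2 fold of 0.20 in muscle 1 and 0.17 in muscle 2. Uqcrh, the hinge protein, was by far the most abundant at 448.8, 423.3 and 457.1 CPM, and hardly differed. Uqcrb stood at 136.4 CPM in spleen and 174.1 and 182.6 CPM in muscle, and Uqcrc2, a core protein, at 153.7, 137.6 and 146.1 CPM. Uqcr11, a small subunit, had the largest positive mean difference, from 79.4 CPM in spleen to 111.5 and 122.6 CPM, or 1.40-fold (1.07 to 1.86) and 1.54-fold (1.19 to 2.02). Uqcr10, another small subunit, had the most negative mean of both log2 folds, at 127.2, 108.9 and 125.2 CPM, but in muscle 2 Uqcrc2 lay further below spleen.

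**Figure D2:**
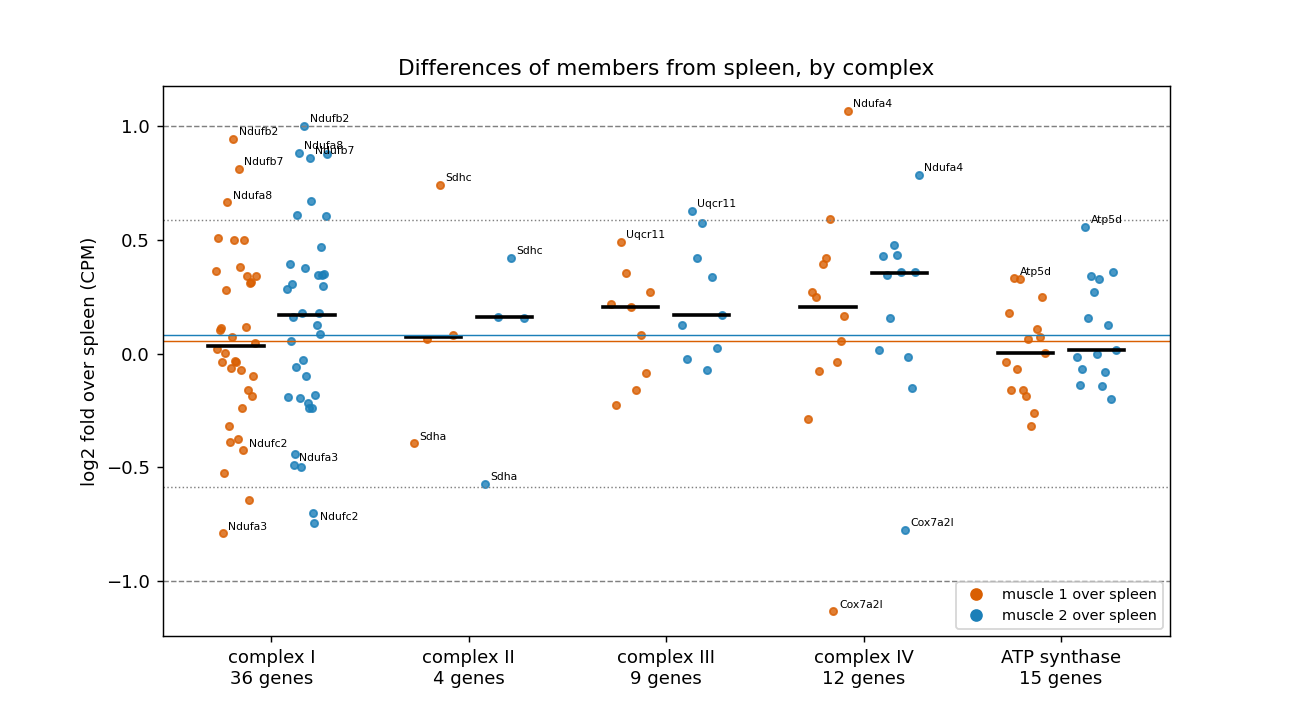
Log2 fold of each measured subunit gene in muscle 1 and muscle 2 over the same spleen library, by complex, with black bars at the medians. Coloured lines mark the median of all 7617 genes, dotted lines 1.5-fold and dashed lines 2-fold, and the highest and the lowest point, Ndufa4 at 1.07 and Cox7a2l at -1.13, both belong to complex IV in muscle 1.

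Complex IV reduces oxygen, and 12 of its 20 genes were measured. Its median log2 fold was 0.21 in muscle 1, about that of complex III, and 0.35 in muscle 2, and it holds the gene furthest below spleen. The order of these complexes rested on the cells used: after thinning to 1000 UMIs per cell complex III had medians of 0.31 and 0.38, against 0.21 in each muscle library for complex IV. Cox8a (564.8, 633.3 and 724.2 CPM), Cox4i1 (659.5, 540.7 and 665.8 CPM) and Cox6a1 (444.8, 421.3 and 495.2 CPM) were its most abundant genes by the mean of the 3 libraries. Cox6b1 stood at 300.2 CPM in spleen and at 393.9 and 417.4 CPM in muscle, and Cox7a2 at 193.4, 291.5 and 247.8 CPM, both above spleen in each muscle library. Cox7b, at 208.6, 203.5 and 206.6 CPM, did not separate the tissues.

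Cox7a2l encodes a relative of Cox7a2 that is known to tether complex III to complex IV in supercomplexes, and the B6 strain is known to carry a shortened form of its protein. The gene (chr17:83501918-83517330, minus strand) gave 642.2 CPM in spleen, 292.8 CPM in muscle 1 and 375.2 CPM in muscle 2. Both muscle libraries were low, at 2.19-fold (1.94 to 2.48) and 1.71-fold (1.54 to 1.91) below spleen, and the Poisson intervals of its level overlapped in no pair of libraries. At least 1 UMI was seen in 65.6% of spleen cells, 36.9% of cells in muscle 1 and 41.4% in muscle 2, shares that also move with cell depth. Its relative Cox7a2 went the other way, so Cox7a2l stood well above Cox7a2 in spleen, less far above it in muscle 2, and within counting error of it in muscle 1.

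Ndufa4 (chr6:11900292-11907497, minus strand) differed in the opposite direction. It gave 109.9 CPM in spleen, 230.2 CPM in muscle 1 and 189.4 CPM in muscle 2, and at least 1 UMI in 27.03% of spleen cells and in 33.4% and 32.3% of muscle cells. Both muscle libraries were above spleen, at 2.09-fold (1.68 to 2.62) and 1.72-fold (1.39 to 2.16). Of the measured complex IV genes it was the lowest in spleen and stood near Cox7b in muscle.

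Isoforms of complex IV known from skeletal muscle and other organs were at or near 0. Cox6a2 and Cox8b, the heart and skeletal muscle isoforms, were at 0 UMIs in each library, and Cox7a1, the third of this kind, gave 0, 3 and 2 UMIs. Cox4i2, known from lung and hypoxia, and the testis isoform Cox8c were at 0 as well. Cox6b2 gave 0, 1 and 11 UMIs, the 11 from 1 cell, Cox7b2 gave 0, 0 and 3, and Ndufa4l2 gave 0, 1 and 1. Atp5s, the other member under 50 UMIs, gave 0, 5 and 6 UMIs. A count of 0 allows up to 3 UMIs (a one-sided 95% limit, below the upper end of the Poisson intervals used for levels), which is 3.05 CPM in spleen, 1.96 in muscle 1 and 1.57 in muscle 2. Each pair of isoforms was thus led by its widely expressed member, Cox4i1, Cox6a1, Cox6b1, Cox7a2, Cox7b, Cox8a or Ndufa4.

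ATP synthase had median log2 folds of 0.00 and 0.02 over its 15 genes, with an SD of 0.21 and 0.23. The c ring, the rotor that protons drive, is encoded by Atp5g1, Atp5g2 and Atp5g3, whose mature proteins are identical. Atp5g2 gave 482.4, 423.9 and 481.1 CPM, Atp5g3 gave 413.2, 431.8 and 519.2 CPM and Atp5g1 gave 128.2, 114.8 and 154.4 CPM. Atp5g2 led in spleen and Atp5g3 in muscle, in muscle 1 by less than the counting error, with Atp5g1 lowest in each library. Atp5l, of the membrane part, gave 369.4, 438.3 and 473.3 CPM. Atp5d, the delta subunit of the central stalk, had the largest positive mean difference, from 298.2 CPM to 375.01 and 438.3 CPM, or 1.26-fold (1.09 to 1.45) and 1.47-fold (1.29 to 1.68). Atp5h, of the peripheral stalk, had the most negative mean difference at 451.9, 361.97 and 409.1 CPM, 1.248-fold (1.10 to 1.42) and 1.10-fold (0.98 to 1.24) lower. The F1 head and central stalk together took 1.04-fold and 1.07-fold of their spleen share, and the peripheral stalk with the remaining membrane subunits 0.99-fold and 1.04-fold. The c ring genes took 0.95-fold (0.87 to 1.03) in muscle 1 and 1.13-fold (1.05 to 1.22) in muscle 2, the widest gap between the muscle libraries among these divisions. Atp5sl, the measured gene that is not a subunit, gave 23.4, 16.96 and 17.74 CPM.

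NRF1 is a transcription factor known to bind promoters of many respiratory chain genes, so the letters of its site were looked for in promoter windows running from 250 bases before to 50 bases after the gene start (RefSeq, GRCm38.p6). Windows were found by symbol for 67 of the 86 members. The palindrome CGCATGCG, which reads the same on both strands, stood in the windows of 9 members, or 13.4%, against 2.07% of all 27025 genes with a window. Those 27025 include genes outside the count table. For this and the other letters below, the share among genes measured here was not taken. The 28 bases around it are shown for the 8 members whose match had 10 bases on either side within the window, with the match in capitals, to set the sites beside the values of their genes.
Atp5g2: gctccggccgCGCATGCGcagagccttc
Atp5j: ggccagaataCGCATGCGtacagtgcag
Atp5k: ttcactgcggCGCATGCGcctttctggc
Cox6a1: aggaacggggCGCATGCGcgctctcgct
Ndufa11: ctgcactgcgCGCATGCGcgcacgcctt
Ndufa8: tcgctggagaCGCATGCGcagatggtac
Uqcr11: atcgccttcaCGCATGCGctatacgtct
Uqcrc1: ctccgctctgCGCATGCGcagcgcggct
In Atp5g2 the shown window is chr15:102671071-102671098 and the match begins 41 bases before the RefSeq gene start, from which all distances here are taken. The Ndufa8 window is chr2:36049330-36049357 with its match 9 bases before the start, and the Uqcr11 window is chr10:80406809-80406836 with its match 5 bases before it. In Uqcrc1 (chr9:108936669-108936696) the match begins 31 bases after the start. The Atp5j window is chr16:84835106-84835133 and the Cox6a1 window chr5:115349102-115349129, both farther before the start. The Atp5k match lies 49 bases before the start at chr5:108434431-108434458 and the Ndufa11 match 59 bases before it at chr17:56717693-56717720. GENCODE M21, used for the gene positions above, places some starts elsewhere, that of Ndufa8 at 36049406. With its starts the Ndufa8, Atp5g2 and Atp5j windows lie within their genes, and those of Uqcr11 and Atp5k span the start.

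Members that shared this match did not share a direction. The 9 genes, Atp5l included, had log2 folds from -0.26 to 0.66 in muscle 1 and from -0.20 to 0.88 in muscle 2, with medians of 0.20 and 0.36. Ndufa8 and Uqcr11 stood at the upper end, and Atp5g2, Atp5j, Atp5k and Cox6a1 were below 0 in at least 1 muscle library. The 54 measured members with a window and no match had medians of 0.05 and 0.16. Other letters searched on both strands were CCGGAAG of the ETS family (16 members, 23.9%, against 9.93% of genes), AAGATGGC of YY1 (9 members, 13.4%, against 3.19%), TCAAGGTCA of the oestrogen-related receptors (2 members, 2.99%, against 0.47%) and CCAAT (29 members, 43.3%, against 41.1%). A match is a description of the letters and no evidence that a factor was bound in these cells.

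Cells of each library were also compared with each other, in a division chosen after the data had been seen. The median cell gave 1.35% of its UMIs from members in spleen (quartiles 1.07% and 1.65%), 1.35% in muscle 1 (1.09% and 1.64%) and 1.46% in muscle 2 (1.17% and 1.77%). After each cell was thinned to 1000 UMIs, which left out 26 and 7 muscle cells below that depth, the mean cell held 14, 13.9 and 14.8 member UMIs. The variance of that number was 2.30, 1.96 and 2.07 times its mean in the 3 libraries, and 0 cells had no member UMI. Cells thus differed by more than counting alone, where this ratio would be 1, and the ratio was largest in spleen. By complex it was also largest in spleen, except for complex III, at 1.49 in spleen and 1.59 in muscle 2.

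In both muscle libraries deeper cells gave larger shares of their UMIs to the respiratory chain. In muscle 1 the share was 1.27% in cells under 1500 UMIs, 1.36% in cells from 1500 to below 3000 UMIs and 1.67% in cells of 3000 or more. In muscle 2 it was 1.35%, 1.45% and 1.67%. In spleen the 2 upper bands gave 1.30% and 1.46%, and the lowest, of 13 cells, gave 1.56% (1.38% to 1.75%). Among cells of 3000 UMIs or more, both muscle libraries exceeded spleen, but outside ribosomal protein genes the shares were 1.87% in spleen and 1.95% in each muscle library.

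**Figure D3:**
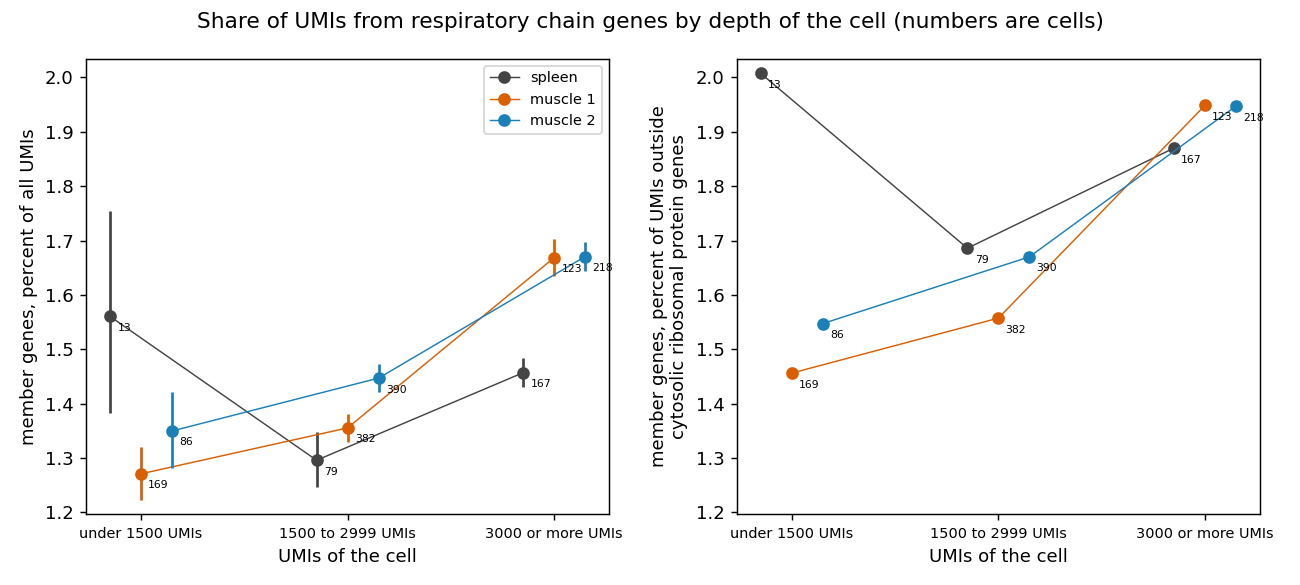
Share of UMIs from member genes by depth band of the cell, as a percent of all UMIs (left, with exact binomial 95% intervals) and of UMIs outside cytosolic ribosomal protein genes (right). The vertical axes do not start at 0. Numbers beside points are cells, and the share climbs with depth in both muscle libraries.

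Because spleen cells were deeper, the folds were also taken within cells of 1500 to 4000 UMIs, whose median depths of 2974, 2159 and 2472 still differed. There 4 members were higher by 2-fold or more in both muscle libraries, which is 5.19% of members against 12.6% of all genes, and 14 were at least 1.5-fold higher (18.2% against 22%). The former were Cox6b1, Ndufb8, Ndufs8 and Ndufv3, from 84, 31, 8 and 23 spleen UMIs. Such low counts were let in because the minimum of 50 UMIs was set over all cells. In all cells Ndufs8 lay at 0.88-fold and 1.23-fold of spleen. Cox6b1, for example, stood at 189.5 CPM in these spleen cells, against 389.5 and 418.2 CPM in muscle, and Ndufv3, an accessory complex I subunit, at 51.9 CPM against 107.8 and 124.5 CPM. The members called higher at 1.5-fold in all cells were among the 14. Cox7a2l was again lower, now with Ndufa3 and Ndufc2 (3.9% of members against 14% of all genes). The part of cell depth in these differences was not tested.

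Cells with cell cycle transcripts had higher shares than the remaining cells in each library. With at least 3 UMIs from the cell cycle list, the 23 spleen cells gave 1.66% of UMIs to members, the 35 cells of muscle 1 gave 1.85% and the 51 cells of muscle 2 gave 1.91%. The remaining cells gave 1.39%, 1.41% and 1.5%. Such cells were deeper, with medians of 4780, 4039 and 4243 UMIs against 3463.5, 1950 and 2448. Within cells of 3000 UMIs or more the shares were 1.68% against 1.42% in spleen, 1.93% against 1.60% in muscle 1 and 1.96% against 1.60% in muscle 2. There too the cells with cell cycle transcripts were deeper, with medians of 5506 against 4130, 4953 against 3620.5 and 5364.5 against 3804 UMIs, so depth was not matched and its part in the difference was not tested.

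Genes that serve the chain were described by lists. The 31 measured assembly factors, which build the complexes, had medians of 0.04 and 0.07 and wider ranges than the subunits, with 3 called higher at 2-fold in the pair of muscle libraries (9.68%, beside 7.47% of all genes) and 1 called lower (3.23%, beside 3.45%). Cox18, which inserts a core subunit of complex IV, gave 4.07, 18.9 and 29.7 CPM from 4 spleen UMIs, Uqcc2, a complex III factor, gave 12.2, 33.3 and 44.4 CPM, and Atpaf1, a chaperone of ATP synthase, gave 23.4, 3.91 and 11.5 CPM. Among 5 electron carriers and side entries, Cycs, the cytochrome c gene, stood at 247.3 CPM in spleen and at 395.2 and 402.3 CPM in muscle, and Gpd2, the mitochondrial glycerol phosphate dehydrogenase, was lower at 21.4, 11.7 and 9.39 CPM. Etfb, of the electron transfer flavoprotein, gave 77.3, 54.8 and 58.4 CPM.

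The list of supercomplex and cristae genes held a pair with strong and opposite differences among 10 measured. Chchd10, a small protein of the cristae, gave 97.7 CPM in spleen and 23.5 and 22.4 CPM in muscle. Minos1, of the complex that shapes cristae junctions, gave 104.8 CPM in spleen and 223.7 and 259.85 CPM in muscle. Higd1a gave 55.98, 77.6 and 84.01 CPM. The 9 measured regulators of mitochondrial biogenesis had medians of -0.15 and -0.27. At 2-fold 0 were called in either direction, beside 7.47% of all genes higher and 3.45% lower, a count that says little for so few genes. Gabpa, an ETS family factor, gave 86.5, 57.4 and 36.5 CPM, Tfb2m gave 23.4, 20.9 and 10.4 CPM, and Tfam, which packs and transcribes mitochondrial DNA, gave 76.3, 47.6 and 51.7 CPM. Gabpa and Atp5j overlap on opposite strands. Without the strand setting, reads in the shared stretch cannot be told apart, and where it lies relative to their 3' ends was not examined.

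The 19 citric acid cycle genes had medians of 0.15 and -0.08, with Sucla2 higher (17.3, 66.5 and 41.7 CPM), Idh2 lower at 1.5-fold (40.7, 13.7 and 25.05 CPM) and Suclg2 at 50.9, 37.2 and 24 CPM. The 71 genes of the mitochondrial ribosome had medians of 0.14 and 0.20, with 5 at least 2-fold higher (7.04%, beside 7.47% of all genes) and 0 lower (3.45% of all genes). Mrps28 stood out at 5.09, 22.8 and 19.3 CPM from 5 spleen UMIs. Of 13 import genes, Timm8b was higher at 18.3, 46.3 and 50.6 CPM, and Tomm5 gave 33.6, 78.9 and 65.2 CPM. The 10 carriers had medians of 0.24 and 0.25, with 0 called at 2-fold (beside 7.47% of all genes higher and 3.45% lower), again few genes. The 7 antioxidant genes had medians of 0.30 and -0.14, with Gpx4, which reduces lipid peroxides, at 330.8, 493.7 and 617.3 CPM and the thioredoxin Txn2 at 183.2, 116.7 and 114.3 CPM.

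Glycolysis differed more than the respiratory chain. Its 13 measured genes had medians of 0.64 and 0.82, and 3 of them, Tpi1, Pkm and Aldoa, passed 2-fold in both muscle libraries (23.1%, beside 7.47% of all genes). Pkm, the pyruvate kinase gene, gave 296.2, 653.5 and 749.3 CPM, Tpi1 gave 50.9, 129.8 and 145.1 CPM and Aldoa gave 108.9, 225.01 and 272.4 CPM. At 1.5-fold 7 of the 13 were higher in both (53.8%, beside 15.9% of all genes) and 0 were lower (10.8% of all genes). Not every gene was higher: Hk2 gave 23.4, 10.4 and 16.2 CPM, and Slc2a1 gave 34.6, 30.7 and 53.7 CPM. The list took 0.21% of UMIs in spleen and 0.33% and 0.37% in muscle, 1.54-fold (1.46 to 1.62) and 1.71-fold (1.63 to 1.80) of spleen, beside 1.02-fold and 1.09-fold for the respiratory chain. These folds use all UMIs. Outside ribosomal protein genes the glycolysis shares were 0.28% in spleen and 0.38% and 0.42% in muscle, a smaller difference in the same direction. The 83 measured genes of the cytosolic ribosome lay on the other side, at medians of -0.74 and -0.70.

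**Figure D4:**
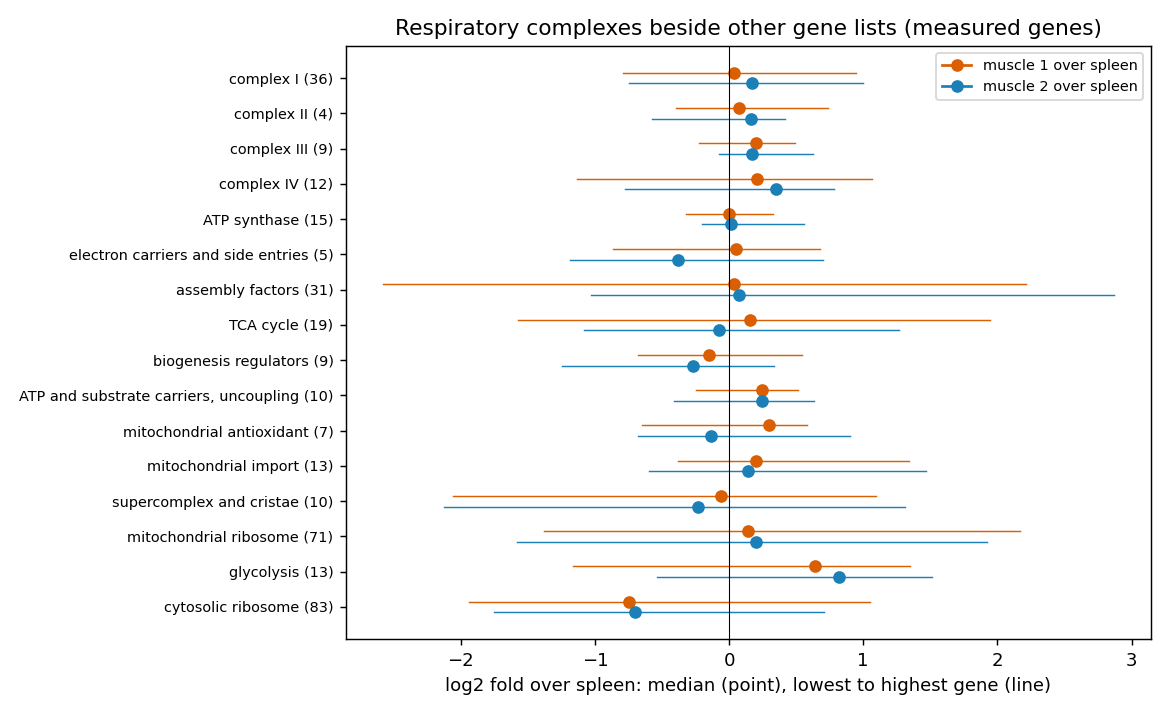
Median log2 fold over spleen (points) and the range from lowest to highest gene (lines) for the 5 complexes and 11 other lists, with measured genes in parentheses. The complexes lie near 0 in both muscle libraries, glycolysis lies to the right at 0.64 and 0.82 and the cytosolic ribosome to the left at -0.74 and -0.70.

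The sign of the median member in muscle 1 rested on the scaling. With totals that leave out ribosomal protein genes the median log2 fold was -0.09 in muscle 1 and 0.01 in muscle 2, while the median of all genes moved with it, to -0.10 and -0.07. Under TMM and DESeq2 factors the medians stayed between 0.05 and 0.12. Complexes III and IV kept positive medians under each scaling, UMI minimum and choice of cells tried, complex III from 0.04 to 0.31 in muscle 1 and from 0.02 to 0.38 in muscle 2, and complex IV from 0.05 to 0.29 and from 0.20 to 0.36. ATP synthase ranged from -0.15 to 0.10 and from -0.13 to 0.02. The mean log2 folds of Ndufa4, Ndufa8, Ndufb2 and Ndufb7 remained positive under each of these choices, and that of Cox7a2l stayed between -1.13 and -0.78.

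**Figure D5:**
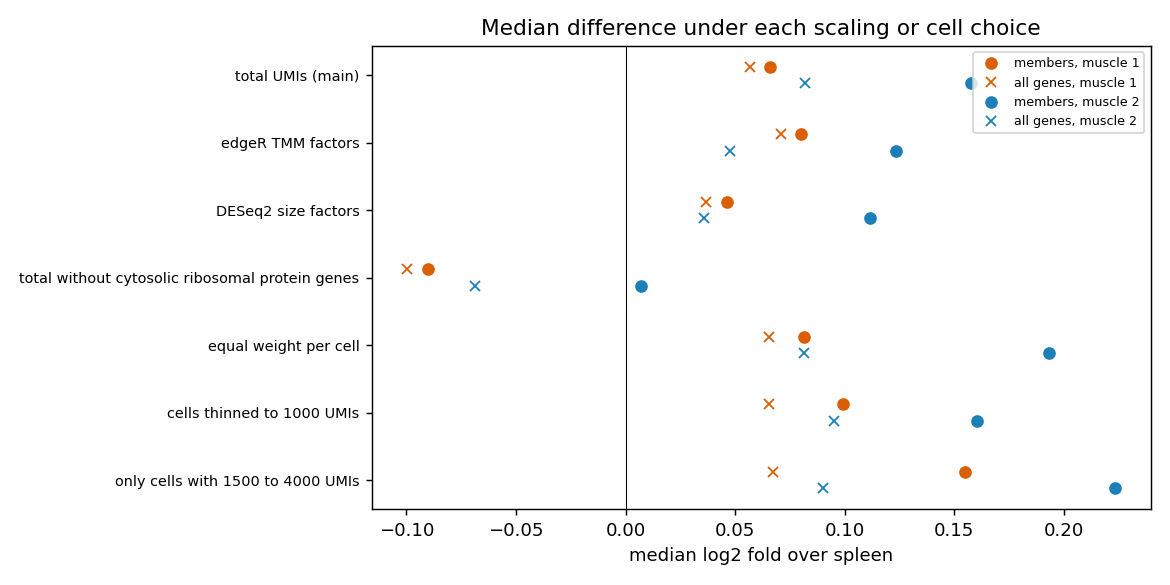
Median log2 fold over spleen of the measured members (circles) and of all measured genes (crosses) under each scaling or choice of cells. Points of members and all genes shift left together when ribosomal protein genes leave the total, to -0.09 and -0.10 in muscle 1.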

How the data were processed

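The values are UMI counts for each gene in each cell, as the authors deposited them, from inDrops reads. Per the submitters' processing notes, TopHat2, SAMtools and the mm10 build were used, with no versions stated. What annotation, strand and cell filter they chose is not given in the sources used here, nor how multi-mapped reads were treated. All 1627 deposited cells were kept, 259 of spleen, 674 of muscle 1 and 694 of muscle 2 by their labels. Of these, 151, 445 and 506 had 1500 to 4000 UMIs, 167, 123 and 218 had 3000 or more, and 13, 169 and 86 had under 1500. No doublet caller was run, and 0, 12 and 7 cells exceeded 3 times the median UMIs of their library.

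The UMIs of a library were added up and expressed as CPM, where 1 UMI equals 1.02, 0.652 and 0.522 CPM. Folds carry exact conditional binomial 95% intervals, levels exact Poisson intervals and shares exact binomial intervals. All of these treat UMIs as independent and leave out the spread between cells. A gene was called when both muscle libraries passed the same fold, 2 or 1.5, in 1 direction, provided its UMIs came to 50 or more in all. Such a call is not a test. The fold script was tested on simulated data. Named are the called members, the 3 most abundant and the most different of each complex, isoform families, members under 50 UMIs, the 3 members that differ most between muscle libraries, and up to 3 genes of other lists. Members and lists were chosen with earlier results of these data known, and the division of cells, of core and accessory subunits and of ATP synthase after the data were seen. The ribosomal list left out Rps6k kinases, Rps19bp1 and pseudogenes. Positions come from GENCODE M21 (GRCm38), by symbol, for 84 members. Calculations ran in Python 3.11.15 with scipy 1.17.1, pandas 2.3.3, numpy 2.4.6 and matplotlib 3.10.9. Scaling factors alone came from edgeR 4.0.16 and DESeq2 1.42.0, run in R 4.3.3. Cells were thinned with seed 1.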

Additional observations from a re-analysis of the deposited data

How the results depend on the processing

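The count of members higher by 2-fold or more in both muscle libraries was 0 and became 1 with equal weight per cell, 2 with cells thinned to 1000 UMIs, 4 with cells of 1500 to 4000 UMIs, and 0 to 1 with 1 muscle library left out. The count at least 2-fold lower was 0, became 1 in thinned cells and was 0 to 1 with a muscle library left out. At 1.5-fold, 4 higher became 9 in thinned cells, 14 in cells of 1500 to 4000 UMIs and 6 to 9 with a muscle library left out, while 1 lower became 3 without ribosomal protein genes in the total, 3 in thinned cells, 3 in cells of 1500 to 4000 UMIs and 3 with either library left out. Thinning and depth bounds leave fewer UMIs, and the share of all genes 2-fold higher went from 7.47% to 12.6% in cells of 1500 to 4000 UMIs. Leaving ribosomal protein genes out of the total moved the median log2 fold of members to -0.090 and 0.0069, and cells of 1500 to 4000 UMIs moved it to 0.15 and 0.22 in muscle 1 and muscle 2. The share of members in spleen was 1.84% without ribosomal protein genes, 1.38% with equal weight per cell, 1.40% thinned and 1.33% in cells of 1500 to 4000 UMIs. In muscle 1 it was 1.68% without ribosomal protein genes and 1.38% with equal weight, and in muscle 2 it was 1.80% without ribosomal protein genes, 1.48% thinned and 1.46% in cells of 1500 to 4000 UMIs. Causes were not tested. Of these and further settings, including a UMI minimum of 10 or 200, leaving out the deepest cells and leaving out shared barcodes, 59 left such a count, median or share within its limit and 27 moved it. No member called in all cells changed direction. Ndufa9, called higher at 1.5-fold only in cells of 1500 to 4000 UMIs, did so from 8 spleen UMIs. Its log2 folds were 1.24 and 0.69 there, but -0.32 and -0.19 in all cells. No paired analysis was possible because spleen has 1 library and replicate numbers name cells, not samples. With 1 spleen library its own spread is unknown, and members near 50 UMIs have wide counting intervals.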

Other observations

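AA467197, known as a relative of Ndufa4 and outside the symbol rule, was looked at after the data had been seen. It gave 0 UMIs in spleen, 34 UMIs in 20 cells of muscle 1 and 17 UMIs in 12 cells of muscle 2. Ndufa4 itself was seen in 27.03% of spleen cells, 33.4% of cells in muscle 1 and 32.3% in muscle 2.

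Il1rl1 encodes the receptor for interleukin 33 and marks a known subset of tissue Tregs. Cells with at least 1 Il1rl1 UMI gave nearly the same share of UMIs to the respiratory chain as those with none, at 1.46% against 1.45% in muscle 1 and 1.59% against 1.54% in muscle 2. In spleen 11 such cells gave 1.36% (1.26% to 1.47%) and the others gave 1.43%. Their median depths were 2264.5 against 1915 UMIs in muscle 1 and 2876 against 2360.5 in muscle 2.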
